A study of Mus musculus with 10 samples.

Results

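Ribosome biogenesis factors and subunits of RNA polymerase I were read in CD4+ splenocytes of mice early in abdominal sepsis, as a measure of the growth programme of these cells. The set was a list of 36 genes, and a gene entered through every probe set whose annotation gave its symbol and no other. Mrto4 had no probe set of that kind and dropped out. The 35 genes that stayed had 73 probe sets, and 66 of these, at least 1 for each gene, passed the filter on dim signals. They are 35 of the 13073 genes tested. The other 7 probe sets, of Ddx18, Nolc1, Pes1, Polr1a, Tbl3 and Wdr12, were too dim to test, and these 6 genes are described by their brighter probe sets.

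All mice were C57Bl/6, aged 8 to 12 weeks, and the labels name no transgene or deletion. Cecal ligation and puncture (CLP) under halothane, which spills gut bacteria into the abdomen, was done in 5 mice. In the 5 sham mice the abdomen was opened and the cecum only handled, and spleens of both groups were taken 6 h later. Cells were enriched to about 91% CD4+ by magnetic removal of other cells, and the RNA of each mouse, amplified over 2 rounds, was hybridised to its own Affymetrix array. These are bulk samples, so fewer cells of a type and less RNA per cell cannot be told apart.

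Ribosomes are built in the nucleolus. RNA polymerase I copies the ribosomal RNA genes into a long precursor, small nucleolar ribonucleoproteins (snoRNPs) modify it, and large assemblies of proteins fold and cut it into the RNAs of the small (40S) and large (60S) subunits. Resting T cells make few ribosomes and increase this work when they are activated and grow, a step in which the transcription factor MYC raises many of these genes. MYC and the opposing MXD proteins bind DNA as dimers with MAX, mainly at a short palindrome called the E-box.

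Because these genes are known as MYC targets, their promoters are shown before their levels. The E-box searched for was CACGTG, which reads the same on both strands. It was sought in windows of 300 bases, from 250 bases before to 50 bases after each gene's start, in RefSeq promoters of assembly GRCm38.p6. Of the 35 genes, 29 had a promoter in that table and 5 of these, 17.2%, held the motif. The share was 15.9% for 97 other ribosome biogenesis genes (13 of 82 with a promoter) and 8.09% over all 27025 genes of the table. That last share was not limited to genes tested on these arrays, so the sets are not alike. A match describes the letters and does not show a binding site. The 5 matches are given 5′ to 3′ on the strand of the gene, with the E-box in capitals. They lie at chr1:34439696-34439725 (Imp4), chr6:125131811-125131840 (Nop2), chr11:3963965-3963994 (Pes1) and chr17:71616220-71616249 (Wdr43), all on the plus strand, and at chr10:88826765-88826789 on the minus strand (Utp20).
Imp4: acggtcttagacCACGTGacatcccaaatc
Nop2: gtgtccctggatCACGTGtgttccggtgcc
Pes1: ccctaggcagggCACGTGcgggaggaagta
Wdr43: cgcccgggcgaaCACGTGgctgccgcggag
Utp20: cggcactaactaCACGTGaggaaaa

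In Imp4 and Nop2 the motif began 121 and 60 bases before the start. In Pes1, Wdr43 and Utp20 it began 2, 17 and 37 bases after it. The 250 bases before the start of Imp4 (chr1:34439579-34439828) and of Nop2 (chr6:125131633-125131882) are printed whole, since they hold the motif upstream of the transcript.
Imp4: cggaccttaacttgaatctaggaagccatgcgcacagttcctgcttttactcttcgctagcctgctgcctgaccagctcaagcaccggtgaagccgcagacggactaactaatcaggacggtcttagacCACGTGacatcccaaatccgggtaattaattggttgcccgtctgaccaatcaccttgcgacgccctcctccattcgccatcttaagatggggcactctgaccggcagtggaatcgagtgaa
Nop2: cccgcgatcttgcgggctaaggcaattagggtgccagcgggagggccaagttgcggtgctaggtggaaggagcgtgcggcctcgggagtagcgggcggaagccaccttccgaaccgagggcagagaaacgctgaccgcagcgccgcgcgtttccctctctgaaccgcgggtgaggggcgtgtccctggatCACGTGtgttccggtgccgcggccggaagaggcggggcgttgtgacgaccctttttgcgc

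The deposited intensities had array medians between 127.6 and 142.4, and Pearson's r between any pair of arrays was 0.929 to 0.991. The arrays fell into classes by their 18S ribosomal RNA control signal, with 6 arrays between 3134 and 5178 and 4 arrays (CLP 2, CLP 4, sham 2 and sham 4) between 194 and 268. Each class held both groups. Ratios of 3′ to 5′ control probe sets spanned 9.45 to 28.5 in CLP and 11.2 to 29.5 in sham arrays for Gapdh. The Gapdh ratio followed the 18S class, at 9.45 to 13.4 in the 4 low arrays and 20.7 to 29.5 in the 6 high arrays. For Actb the classes overlapped, at 7.40 to 10.8 in low and 6.25 to 11.7 in high arrays. All 9 CD4 T cell markers tested had lower means in CLP, 0 passed the threshold by limma, 4 had an unadjusted p under 0.05, and the median log2 fold change was -0.35. Of all genes tested, 48.8% had lower CLP means, 0.75% passed by limma and 11.8% had an unadjusted p under 0.05. The changes ran from -0.79 ± 0.27 (SE) for Thy1 to -0.02 ± 0.08 for Il7r, with Cd5 at -0.69 ± 0.17, Cd4 at -0.12 ± 0.13 and Cd3e at -0.12 ± 0.09. Trat1 was at -0.72 ± 0.16 with no overlap between groups, which 3.13% of all genes had. Whether the CD4 marker shift bears on the biogenesis genes was not tested.

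No gene of the set passed the test for a difference between CLP and sham. At a Benjamini-Hochberg adjusted p under 0.05 by limma, 0 of 35 genes were called, where 0.75% of all genes tested were (98 of 13073). At an unadjusted p under 0.05 the count was 1 of 35, Utp20, against 11.8% of all genes. By probe set, 0 of 66 were called (0.703% of all probe sets) and 4 of 66 had an unadjusted p under 0.05 (10.9% of all), each of them lower in CLP: the probe set of Utp20 and dimmer probe sets of Bysl, Wdr12 and Ncl. No gene had its CLP arrays all on one side of its sham arrays, which 3.13% of all genes did.

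Signal is given as log2 of the scaled intensity, so a difference of 1 is a doubling. The mean was lower in CLP in 25 of 35 genes (71.4%), against 48.8% of all genes. Their median log2 fold change was -0.08, against 0.0046 over all genes, and the changes ran from -0.37 (Utp20) to 0.29 (Wdr12). With quantile normalization 23 of 35 were lower, with a median of -0.04, and with unscaled intensities 25 were lower, with a median of -0.07. Single arrays moved the median further: it was -0.02 without CLP 4, -0.04 without CLP 5, -0.05 without sham 5 and -0.13 without CLP 1. The count of lower genes moved as well. It was 21 of 35 without CLP 4 or without CLP 5, 31 without CLP 1 and 32 without CLP 2. With arrays weighted by quality 22 were lower, and the median was -0.03.

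The data bound how large a change the brightest probe set of each gene could have shown. For 30 of 35 genes (85.7%), against 79.8% of all genes, the 95% confidence interval of the change lay within 1.5-fold in either direction. The 5 genes whose interval reached further were Nolc1, Nop58, Rrp12, Utp20 and Wdr12. Nolc1, a nucleolar chaperone of snoRNPs, had the widest of the nucleolar group by brightest probe sets, from 0.637-fold to 1.59-fold. The bound does not hold for every probe set. Dimmer probe sets of Bysl, Ncl, Dkc1, Polr1a, Polr1c, Npm1 and Rrs1 had intervals that reached beyond 1.5-fold. That of the dimmer Bysl probe set ran from 0.472-fold to 0.847-fold. An interval that holds 0 does not show that a gene was unchanged.

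**Figure D1:**
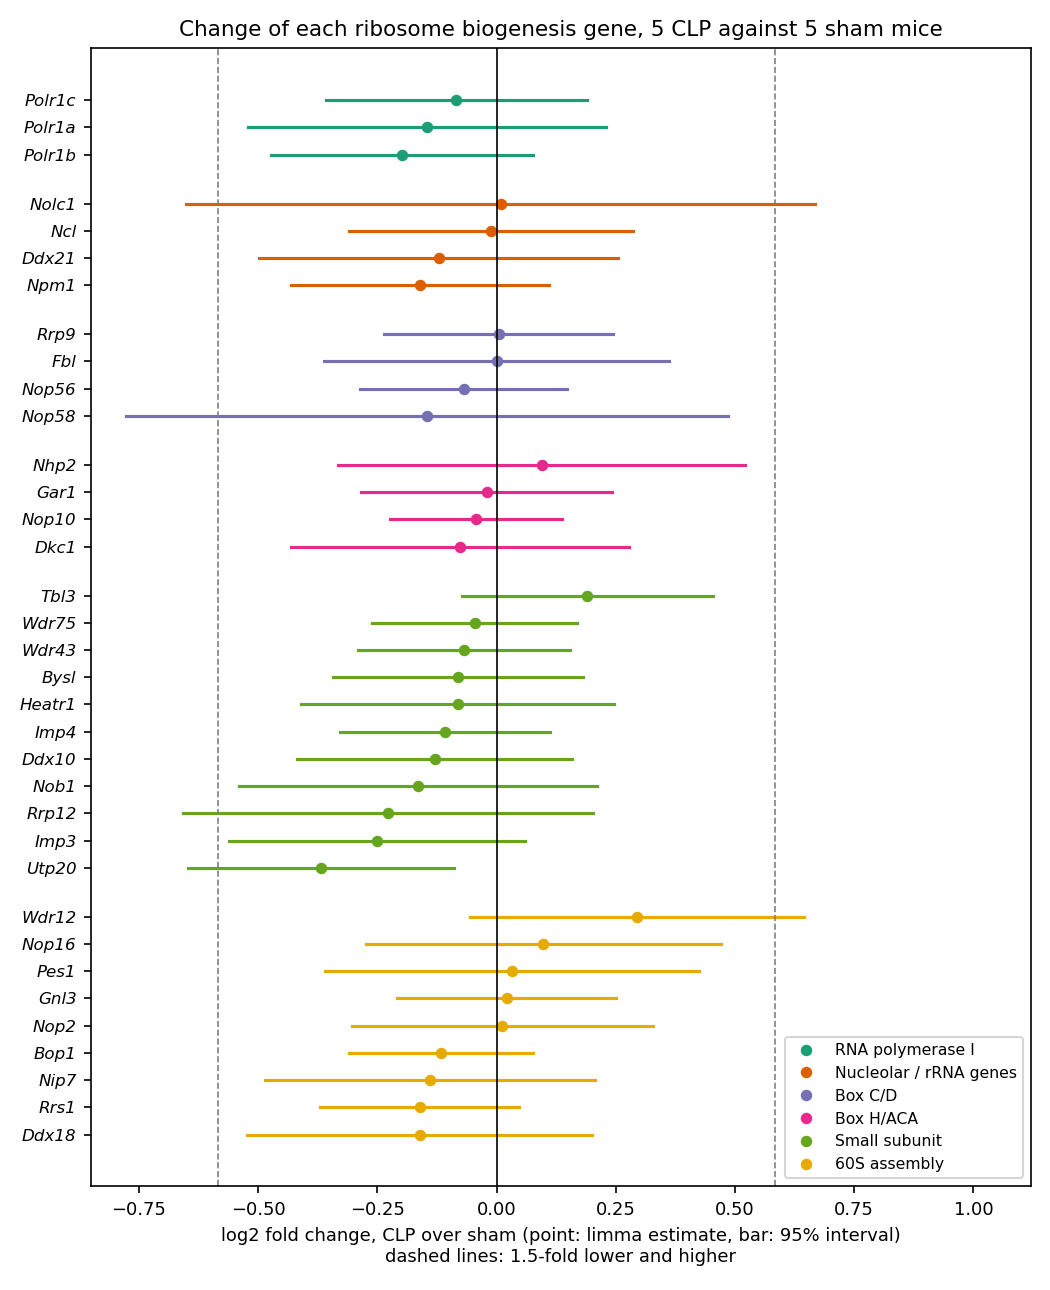
Log2 fold change of each of 35 ribosome biogenesis genes, CLP over sham, on the horizontal axis, with genes on the vertical axis grouped and coloured by role. Points are limma estimates and bars 95% intervals over 5 CLP and 5 sham mice; dashed lines mark 1.5-fold. Each gene is shown by its brightest probe set. Only the interval of Utp20 leaves 0, and 30 of 35 lie between the dashed lines.

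By their brightest probe sets, the 3 RNA polymerase I subunits of the set had lower means in CLP, and none passed. Polr1b, the second-largest subunit of the enzyme, read 8.05, 8.33, 8.67, 8.27 and 8.43 in sham arrays 1 to 5 and 8.34, 7.95, 8.08, 8.32 and 8.07 in CLP arrays 1 to 5. CLP 2 lay below every sham array and the other CLP arrays within the sham range. Its log2 fold change was -0.20 ± 0.13 (SE, n = 5 and 5, adjusted p = 0.680 by limma). Polr1a, the largest subunit, read 8.44, 8.20, 8.45, 8.09 and 9.01 in sham and 8.55, 8.38, 8.42, 7.98 and 8.13 in CLP arrays. Sham 5 was the highest and CLP 4 the lowest, and the remaining values were mixed. The difference was -0.15 ± 0.17 (adjusted p = 0.895), and 1 of its 3 other tested probe sets had a higher CLP mean, by 0.13 ± 0.11. Polr1c, a subunit shared with RNA polymerase III, differed by -0.08 ± 0.13.

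Among the nucleolar organisers and rRNA gene factors, 3 of 4 had lower CLP means and none passed. Npm1 (nucleophosmin), an abundant nucleolar chaperone, read 12.30, 12.50, 12.33, 12.41 and 12.38 in sham and 12.30, 12.58, 12.31, 11.98 and 11.94 in CLP arrays. CLP 4 and CLP 5 lay below every sham array while CLP 2 lay above all of them. Its change was -0.16 ± 0.12 (adjusted p = 0.776). Ddx21, an RNA helicase that acts at RNA polymerase I and II genes, read 10.55, 11.09, 10.55, 11.04 and 10.40 in sham and 10.87, 10.94, 10.44, 10.46 and 10.32 in CLP arrays. High values occurred in both groups, and the change was -0.12 ± 0.17 (adjusted p = 0.920). Ncl (nucleolin), which binds the rRNA precursor, differed by -0.01 ± 0.14 and Nolc1 by 0.01 ± 0.30. The brightest probe set of Ncl is of a type that can cross-hybridise with other transcripts, as its name suffix marks, and so is that of Rrs1 below.

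Box C/D snoRNPs guide the methylation of ribosomal RNA. Nop56, a core protein, read 10.99, 11.01, 10.77, 10.80 and 10.78 in sham and 10.98, 10.90, 10.77, 10.78 and 10.57 in CLP arrays. CLP 5 was lowest, the others lay within the sham range, and the change was -0.07 ± 0.10 (adjusted p = 0.920). Nop58, its partner in the same particle, varied far more, at 9.32, 10.18, 8.76, 9.31 and 9.15 in sham and 9.26, 9.98, 9.19, 9.08 and 8.47 in CLP arrays. The array numbered 2 was the highest in each group. Its change of -0.15 ± 0.29 (adjusted p = 0.946) is one of the least precise of the set. Fbl (fibrillarin), the methyltransferase of the particle, had equal group means of 10.15, with an SD of 0.36 over CLP and 0.19 over sham arrays. Rrp9, which binds the U3 snoRNA, differed by 0.0049 ± 0.11.

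Box H/ACA snoRNPs guide pseudouridylation. Nop10, a small core protein, was among the steadiest, at 12.49, 12.42, 12.48, 12.48 and 12.62 in sham and 12.59, 12.33, 12.46, 12.36 and 12.53 in CLP arrays. Its change was -0.04 ± 0.08 (adjusted p = 0.945), with an interval from 0.856-fold to 1.10-fold. Nhp2, another core protein, read 9.52, 9.87, 9.99, 9.76 and 9.60 in sham and 10.34, 10.25, 9.83, 9.34 and 9.45 in CLP arrays. CLP 1 and CLP 2 exceeded every sham array and CLP 4 and CLP 5 lay below every one, so the mean difference of 0.09 ± 0.19 (adjusted p = 0.949) spans a wide spread. Dkc1 (dyskerin), the pseudouridine synthase, differed by -0.08 ± 0.16, and Gar1 by -0.02 ± 0.12.

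Factors of the small subunit processome and 40S maturation had lower CLP means in 10 of 11 genes, with a median of -0.11, and 0 were called. Utp20, a scaffold of the processome, had the lowest p of the whole set. It read 9.32, 9.34, 9.53, 9.43 and 9.55 in sham and 9.31, 9.35, 9.08, 8.72 and 8.87 in CLP arrays. CLP 3, CLP 4 and CLP 5 lay below every sham array and CLP 1 just below the lowest of them, while CLP 2 lay within the sham range. The level was 1.29-fold lower in CLP, a log2 fold change of -0.37 ± 0.13 (unadjusted p = 0.0142, adjusted p = 0.251 by limma), and its interval ran from -0.65 to -0.09. Over 23 alternative settings the change stayed between -0.44 and -0.28 and the lowest adjusted p was 0.151.

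Imp3, a U3 snoRNP protein, read 9.25, 9.55, 9.51, 9.56 and 9.96 in sham and 9.29, 9.60, 9.47, 9.13 and 9.09 in CLP arrays. CLP 4 and CLP 5 were below all sham arrays, the other 3 within their range, and the change was -0.25 ± 0.14 (adjusted p = 0.611). Tbl3, a WD-repeat protein of the processome, was the only gene of this group with a higher CLP mean, by 0.19 ± 0.12. The remaining 8 (Rrp12, Nob1, Ddx10, Imp4, Heatr1, Bysl, Wdr43 and Wdr75) differed by -0.23 to -0.05, with adjusted p between 0.814 and 0.949.

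Of the 60S assembly factors 4 of 9 had lower CLP means, with a median of 0.01, and 0 were called. Wdr12, which forms the PeBoW complex with Pes1 and Bop1, read 9.58, 9.48, 9.61, 9.51 and 9.11 in sham and 9.94, 10.03, 9.89, 9.19 and 9.71 in CLP arrays. All CLP arrays except CLP 4 exceeded every sham array, and sham 5 was the lowest of all 10. Its change was 0.29 ± 0.16 (adjusted p = 0.582). Its partners Pes1 and Bop1 differed by 0.03 ± 0.18 and -0.12 ± 0.09. Rrs1, which helps to place the 5S particle in the pre-60S subunit, read 11.60, 11.66, 11.60, 11.66 and 11.57 in sham and 11.74, 11.41, 11.44, 11.43 and 11.25 in CLP arrays. The sham values were tight, CLP 1 lay above them and the other CLP arrays below them, and the change was -0.16 ± 0.10 (adjusted p = 0.639). The others (Ddx18, Nip7, Nop16, Gnl3 and Nop2) differed by -0.16 to 0.10.

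**Figure D2:**
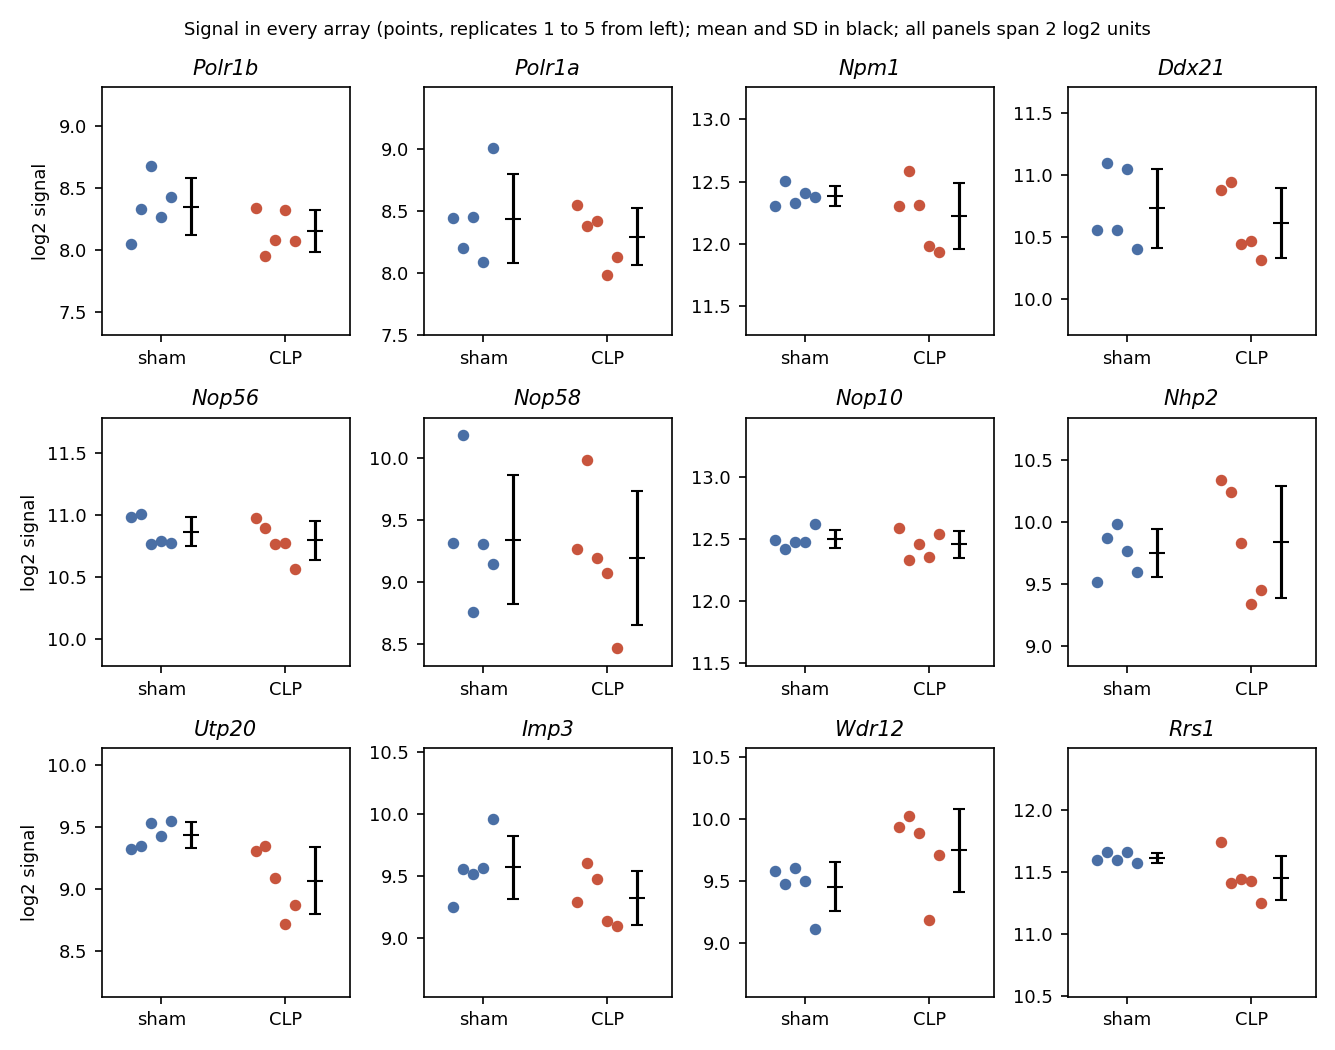
Log2 signal (vertical axis) of the 12 genes described in full, in 5 sham (blue) and 5 CLP (red) arrays, replicates 1 to 5 from left to right in each group; black marks are mean and SD. All panels cover 2 log2 units. The groups overlap in each panel, and the CLP values of Npm1, Nhp2, Utp20 and Rrs1 are spread more widely than the sham values.

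Probe sets of 1 gene did not always give the same direction. Of 23 genes with several tested probe sets, 15 had the same sign in all of them and 8 did not. The widest gap was in Wdr12. Its second probe set read 7.41, 7.15, 7.61, 7.21 and 7.58 in sham and 7.32, 6.94, 7.25, 6.91 and 6.68 in CLP arrays, a change of -0.37 ± 0.14 (adjusted p = 0.317), opposite to the brighter one. Averaged over both probe sets, Wdr12 changed by -0.04. No direction is therefore given for Wdr12.

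Bysl, a 40S assembly factor, showed the lowest p of any probe set here. Its dimmer probe set read 8.04, 8.17, 8.27, 7.94 and 8.29 in sham and 8.24, 7.44, 7.40, 7.36 and 6.99 in CLP arrays. CLP 1 lay among the sham arrays and the other CLP arrays lay below all of them. This gave -0.66 ± 0.19 (unadjusted p = 0.00525, adjusted p = 0.157), while the brighter probe set gave -0.08 ± 0.12. The 5 probe sets of Ncl ranged from -0.42 to 0.12. Without CLP 1, the dimmer Bysl probe set (-0.85 ± 0.12, adjusted p = 0.00792) and 1 Ncl probe set (-0.60 ± 0.12, adjusted p = 0.0338) passed, the only calls among these probe sets in any alternative.

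**Figure D3:**
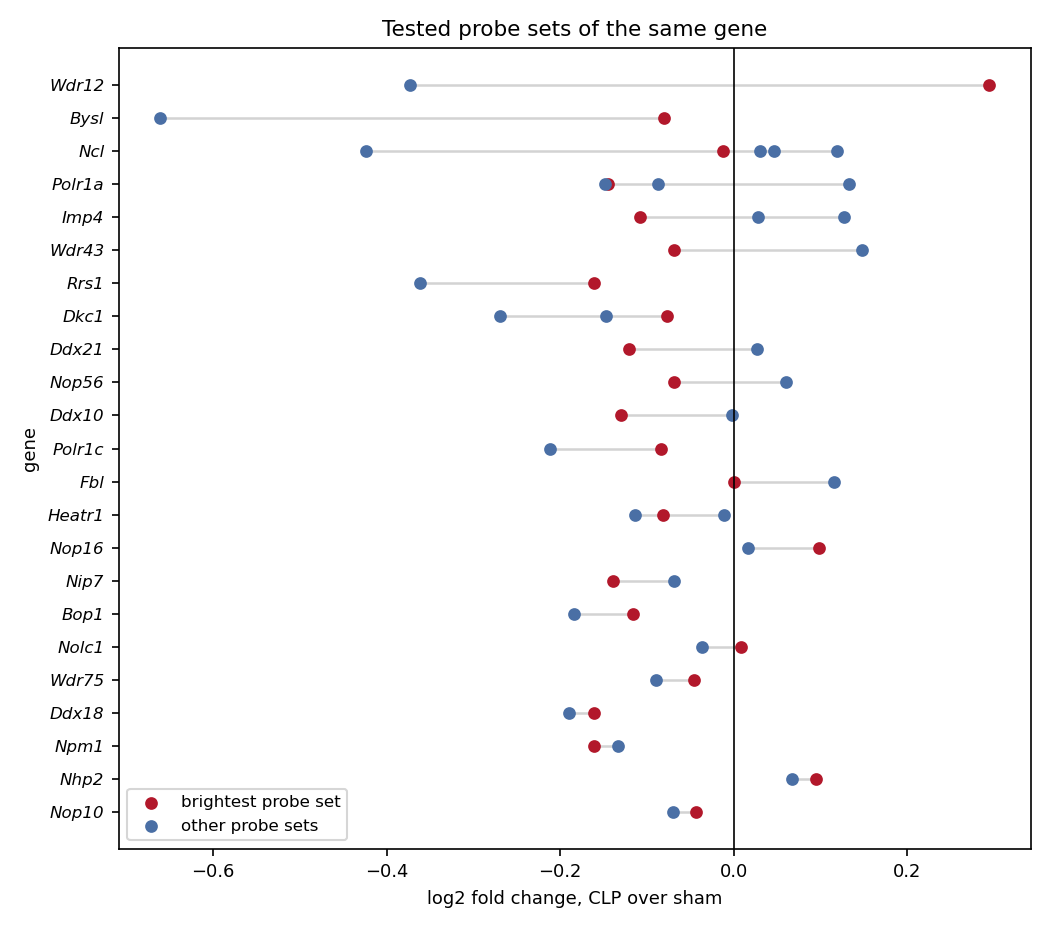
Log2 fold change, CLP over sham (horizontal axis), of every tested probe set of the 23 genes with more than 1, sorted by the gap within a gene; red marks the brightest probe set and blue the others. Grey lines join the probe sets of a gene. Wdr12, Bysl and Ncl show the widest gaps, and the probe sets of Wdr12 lie on both sides of 0.

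The genes also varied together from mouse to mouse. With each group's mean subtracted, the median Pearson's r between pairs of these genes over the 10 arrays was 0.48, and 49.1% of 595 pairs exceeded 0.5. For 2000 genes drawn from all tested with a fixed seed the median was 0.01 and 15.5% of pairs exceeded 0.5. The pairs share arrays and any array-wide effect, so r is a description without a p. With quantile normalization the median was 0.39, with unscaled intensities 0.37, and leaving out single arrays gave 0.41 to 0.55. The groups were also taken separately. Over the 5 CLP arrays alone the median r was 0.70, with 68.2% of pairs over 0.5, where the drawn genes had 0.0087 and 21.5%. Over the 5 sham arrays alone it was 0.21, with 33.3% of pairs over 0.5 and 20.2% below -0.5, where the drawn genes had 0.02, 26.6% and 24.8%. The difference between groups in r was not tested, and 5 arrays make each r imprecise. After the means of the 18S classes were also subtracted it was 0.64, against 0.03 for the drawn genes.

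The genes that followed the mean of the others most closely were Fbl (r = 0.96), Utp20 (r = 0.96) and Rrp12 (r = 0.94), which matures the 40S subunit. Polr1b (r = 0.00), Bop1 (r = 0.16) and Nop10 (r = 0.22) followed it least. The highest single pair was Nob1 with Fbl (r = 0.98) and the lowest Ddx21 with Bop1 (r = -0.60). Brightest and second probe sets of the same gene had a median r of 0.47 over 23 genes, and in 3 genes (Ddx10, Nolc1 and Wdr75) r was below 0.

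The mean of the 35 genes differed more among CLP than among sham mice. Averaged over the 35 genes, the deviation from each gene's own mean was 0.19 in CLP 1, 0.16 in CLP 2, 0.02 in CLP 3, -0.29 in CLP 4 and -0.25 in CLP 5. In sham arrays it was -0.02, 0.02, 0.06, -0.02 and 0.14. CLP 1 and CLP 2 lay above the whole sham range, CLP 4 and CLP 5 below it, and CLP 3 within it. Counted by gene, 33 of 35 were above their own mean in CLP 1, 24 in CLP 2 and 21 in CLP 3, but 2 in CLP 4 and 4 in CLP 5, against 14 to 27 in sham arrays. All genes tested deviated by -0.05 to 0.03 on average.

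The SD of that mean was 0.22 over CLP and 0.07 over sham arrays, 0.20 and 0.04 with quantile normalization, and 0.18 and 0.05 with unscaled intensities. Leaving out sham 5 brought the sham SD from 0.07 to 0.04, and without any 1 CLP array the CLP SD stayed between 0.20 and 0.26. Gene by gene, the SD was larger over CLP arrays in 27 of 35 (77.1%), against 54.7% of all genes and 63 of 97 (64.9%) other biogenesis genes. The roles differed in this. The SD of the role mean was 0.13 over CLP and 0.20 over sham arrays for the 3 RNA polymerase I subunits, the reverse of the whole set, and 0.20 and 0.12 for the small subunit group. It was 0.31 and 0.03 for the 4 nucleolar factors and 0.24 and 0.05 for the 60S assembly factors. No test of the difference in spread was made. CLP 4 and CLP 5, the lowest arrays, belong to the low and the high 18S class.

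**Figure D4:**
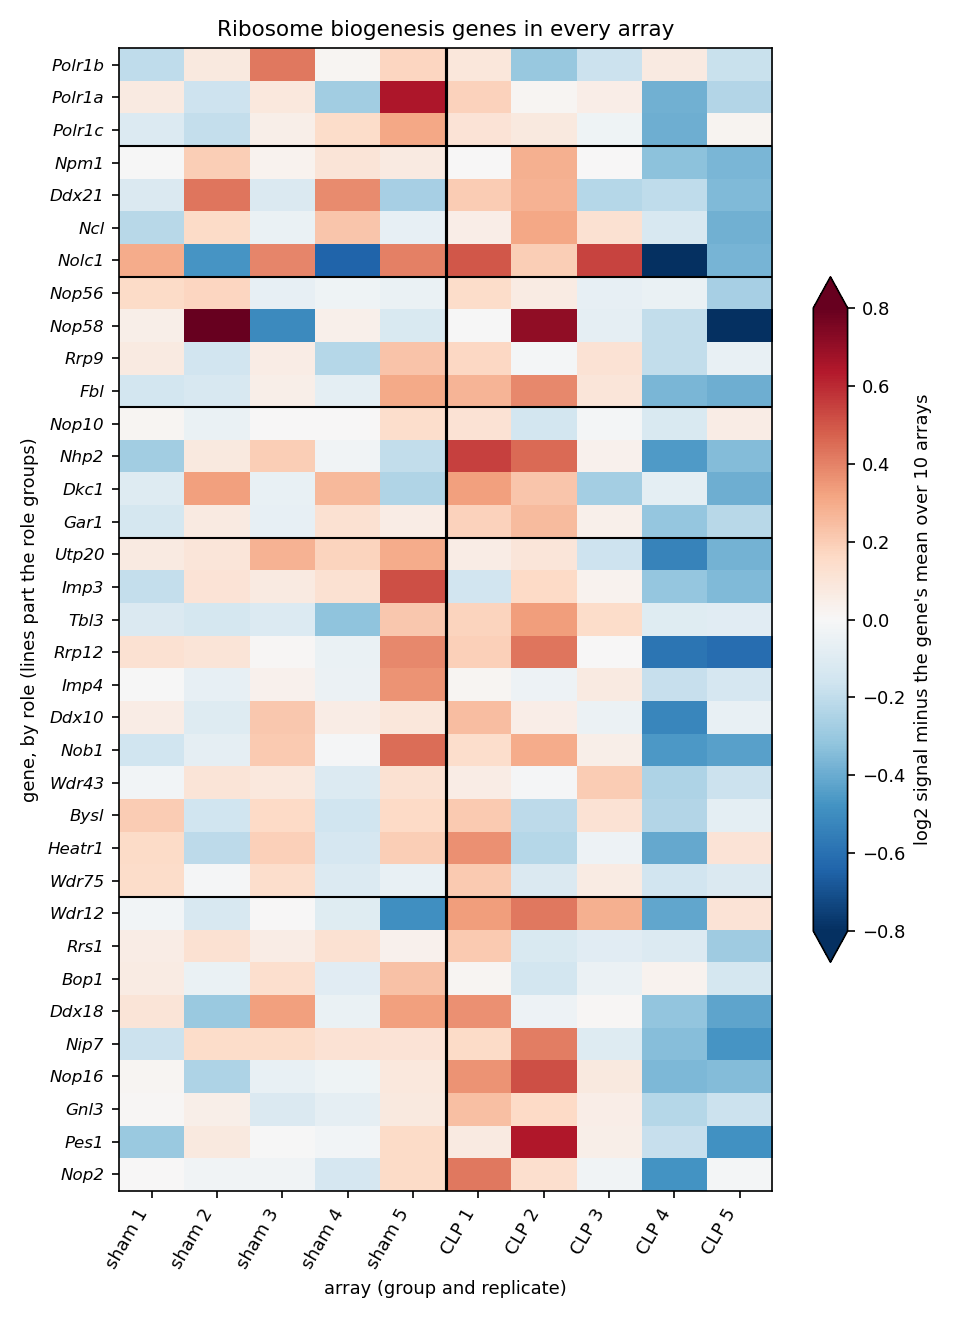
Log2 signal minus the gene's mean over 10 arrays (colour; red above, blue below) for 35 genes (rows, grouped by role) in 5 sham and 5 CLP arrays (columns). In CLP 1, 33 of 35 genes are above their mean and in CLP 4 only 2 are; sham columns are paler and mixed.

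Gene lists for other cell states moved across the same arrays. The 12 cycling cell markers deviated by 0.46, 0.48, 0.09, -0.46 and -0.30 in CLP arrays 1 to 5 and by -0.07, 0.36, -0.17, 0.09 and -0.49 in sham arrays. In both lists CLP 1 and CLP 2 were the highest CLP arrays and CLP 4 the lowest. Among sham arrays, sham 5 was the highest for biogenesis genes and the lowest for cycling markers. The list mean of the cycling markers was 8.95 to 9.80 in sham and 8.98 to 9.92 in CLP arrays. Of the 12 markers, 10 had higher CLP means, with a median log2 fold change of 0.10. The share lower in CLP was 16.7%, against 48.8% of all genes and 71.4% of the 35 biogenesis genes. By limma 0 of 12 were called, with 0 at an unadjusted p under 0.05, against 0.75% and 11.8% of all genes.

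The 7 erythroid markers deviated by 0.81, 0.35, 0.00, -0.16 and -0.18 in CLP and by 0.22, -0.03, -0.55, -0.11 and -0.35 in sham arrays. Their list mean ran from 8.95 to 9.72 in sham and from 9.32 to 10.32 in CLP arrays, with 0 of 7 called and 1 higher at an unadjusted p under 0.05. CLP 1 was also the highest array for the 8 B cell markers (0.61) and the 9 myeloid markers (0.50). Sham 1 was the next highest for both lists (0.41 and 0.36) and the highest sham array for erythroid markers. The B cell, myeloid, plasma cell and CD8 or NK lists had 0 genes called of 8, 9, 6 and 8, with 0, 1, 0 and 3 at an unadjusted p under 0.05. The 3 of the CD8 or NK list were lower in CLP and the 1 of the myeloid list higher. Of all genes tested, 0.75% were called by limma and 11.8% had an unadjusted p under 0.05. No marker tested lay at the floor in any array except Tnfrsf17 of the plasma cell list, in 3 arrays. The part of these cell types in the array differences was not tested.

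**Figure D5:**
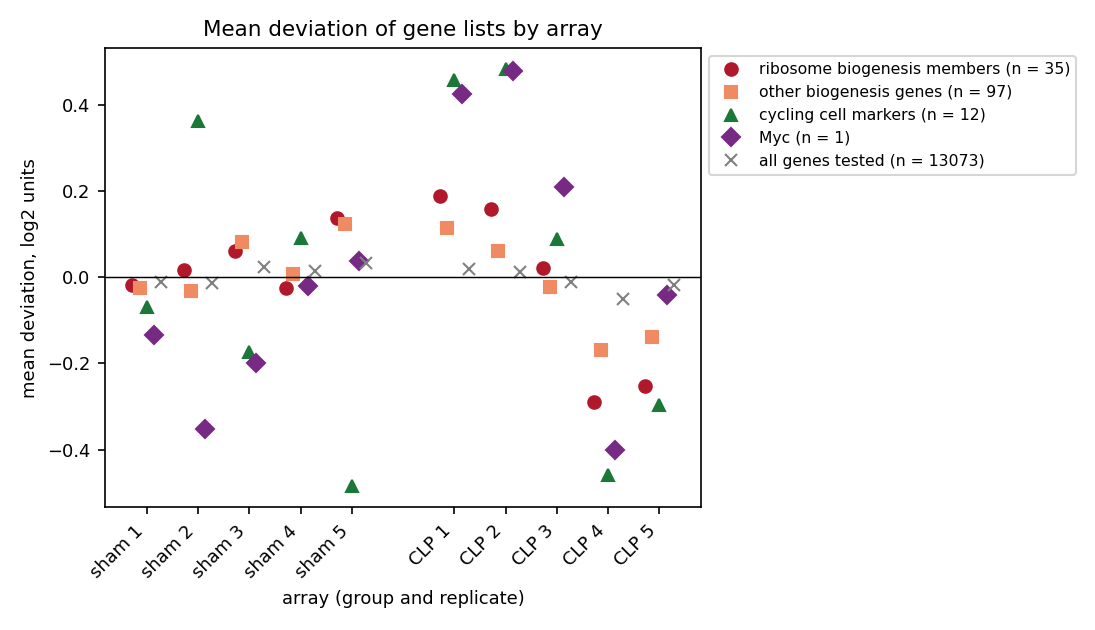
Mean deviation from each gene's own mean, in log2 units (vertical axis), of 35 ribosome biogenesis genes, 97 other biogenesis genes, 12 cycling cell markers, Myc alone and all 13073 genes, in each of 10 arrays (horizontal axis). The 35 genes lie within -0.02 to 0.14 in sham arrays and from -0.29 to 0.19 in CLP arrays, the 97 others within -0.03 to 0.12 and -0.17 to 0.11, while all genes stay between -0.05 and 0.03.

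The rest of the pathway was read through lists of other genes. Of 97 further biogenesis genes tested, 0 rose and 1 fell by limma, where 0.75% of all genes tested were called. The mean was lower in CLP in 64 of the 97 (66.0%), against 48.8% of all genes. Their median was -0.06, against 0.0046 over all genes. The array deviations of the 97 genes in CLP were 0.11, 0.06, -0.02, -0.17 and -0.14. These had the same signs as those of the 35 genes except in CLP 3. The median r of these genes among themselves was 0.19, and with the 35 genes 0.31. The gene that fell was Utp23, a factor of early small subunit cleavage. It read 8.88, 8.93, 9.02, 8.93 and 9.13 in sham and 8.59, 8.52, 8.40, 8.48 and 8.61 in CLP arrays, with no overlap. It was 1.37-fold lower, a log2 fold change of -0.46 ± 0.08 (adjusted p = 0.0355 by limma).

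That call was fragile. Leaving out 1 array at a time kept the change of Utp23 between -0.48 and -0.42, but it passed only without CLP 1 or without CLP 4 and missed the threshold in the other 8 cases (adjusted p up to 0.123). Averaged over all probe sets of the gene the change was -0.11 (adjusted p = 0.729). In the other lists, 0 of 12 further RNA polymerase I genes, 0 of 9 snoRNP genes and 0 of 38 further 60S genes were called. Their lowest p belonged to Taf1c, an RNA polymerase I initiation factor (-0.31 ± 0.16, adjusted p = 0.558), Rpap3, a co-chaperone of snoRNP assembly (0.85 ± 0.23, adjusted p = 0.130), and Nol8, a nucleolar protein (-0.52 ± 0.12, adjusted p = 0.0860). Nol8 and Dimt1, the rRNA dimethyltransferase (-0.17 ± 0.07, adjusted p = 0.355), did not overlap between groups. With Utp23 they were 3 of the 97 genes, near the 3.13% of all genes tested that had no overlap.

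Upstream regulators were read beside the biogenesis genes. Of 19 MYC and mTOR growth regulators tested, 1 rose and 0 fell, where 0.75% of all genes tested were called. At an unadjusted p under 0.05 by limma there were 6 of 19 (3 higher and 3 lower), against 11.8% of all genes. The median of the 19 was -0.0035. Myc read 8.92, 8.70, 8.86, 9.04 and 9.09 in sham and 9.48, 9.54, 9.27, 8.66 and 9.02 in CLP arrays. CLP 1, CLP 2 and CLP 3 exceeded every sham array, CLP 4 lay below them all, and the change was 0.27 ± 0.16 (adjusted p = 0.651). The gene that rose was Mxd1, a MAX partner that opposes MYC. It read 9.46 in sham 1, 8.64 to 9.08 in the other sham arrays, and 9.74, 10.55, 10.37, 9.91 and 10.55 in CLP arrays.

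The Mxd1 groups did not overlap, and the change was 1.21 ± 0.19 (adjusted p = 0.0259). It passed in 3 of 10 fits that left out 1 array (without CLP 1, CLP 4 or sham 1), with adjusted p up to 0.0950. Averaged over probe sets Mxd1 changed by 0.48 (adjusted p = 0.0569). Mxd4, another MAX partner, differed by -0.58 ± 0.19 (adjusted p = 0.214). Mlst8, a subunit shared by both mTOR complexes, differed by 0.21 ± 0.08 (adjusted p = 0.365) with no overlap between groups. Mxd1 and Mlst8 were the 2 of 19 regulators without overlap, which 3.13% of all genes tested had.

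The 18S class of the arrays was set against these results. Between the low and high class, 3 of 35 genes (8.57%) passed by limma, against 14.5% of all genes. By its brightest probe set each was lower in the low class: Heatr1, a processome and rRNA transcription factor (-0.41 ± 0.09, adjusted p = 0.0141), Bysl (-0.32 ± 0.08, adjusted p = 0.0193) and Nolc1 (-0.73 ± 0.22, adjusted p = 0.0467). The second Nolc1 probe set went the other way. It read 7.72, 7.21, 7.83 and 7.40 in the low arrays (CLP 2, CLP 4, sham 2 and sham 4) and 6.94 to 7.26 in the high arrays. No direction between the classes is therefore given for Nolc1. When the class entered the comparison of CLP with sham as a block, 0 of 35 genes were called, where 2.72% of all genes were. Within the high class (3 CLP and 3 sham arrays) 25 of 35 had lower CLP means with a median of -0.07, and within the low class (2 and 2) 26 of 35 with a median of -0.09. The shares lower over all genes were 48.5% and 52.3%. Within a class 0 of 35 were called by limma, but so were 0 of all genes (0% of 13055 and 0% of 13160), so these counts do not set the biogenesis genes apart. At an unadjusted p under 0.05 there were 2 of 35 in the high class (12.3% of all genes) and 0 of 35 in the low class (6.94%).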

How the data were processed

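RNA of CD4+ splenocytes from 5 CLP and 5 sham mice, 1 array per mouse, is held as deposited intensities on a linear scale, with a value for each probe set. How the authors corrected and scaled them is not stated in the labels used here. Each source label names an individual mouse and the series text speaks of 5 replicates in a group, from which the error here is taken to be between mice. The titles, however, number the CLP arrays as replicates 1 to 5 but call every sham array replicate 1 with a suffix from 1 to 5. If the sham arrays were not separate mice, their spread would be technical. The number of arrays limits the precision.

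Arrays were scaled to a common median, values under the 25th percentile (70.4) were raised to it, and log2 was taken. After controls and probe sets with a mean under the 40th percentile were dropped, 27022 of 45101 stayed. Probe sets were linked to genes by the platform annotation, which can be old. A probe set with 1 symbol took the RefSeq symbol of its gene identifier where there was one, and otherwise kept the annotated symbol. CLP was tested against sham by limma 3.58.1 (R 4.3.3), adjusted by Benjamini-Hochberg over all 27022, at 0.05. A gene is its brightest tested probe set with 1 symbol. The fit was tested on simulated data. Figures used matplotlib 3.10.9.

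The genes, role groups and other lists were chosen with earlier results of these data known, as was the 18S split at an intensity of 1000. Described in full were the 2 genes of each role with the lowest p, any called and any without overlap; of each other list, up to 3 genes with the lowest p, and Myc. Probe sets of Wdr12, Bysl and Ncl, Dimt1, the CD4 markers besides Cd4 and Cd3e, and the genes named for co-variation were picked after their values were seen. Alternatives changed the scaling, floor, filter, variance model, array weights, probe set rule, replicate block and 18S class, and left out each array. The sham suffix served as the replicate number. Same-numbered CLP and sham arrays had deviations correlated at 0.18, 0.58, 0.38, 0.18 and 0.06, and the 18S class follows the number in both groups (2 and 4 low, the others high). As 1 of 5 correlations was under 0.1 and no label ties the numbers, they were not taken to pair mice. Sequences were read from RefSeq promoters of GRCm38.p6; 6 of the 35 genes (Bop1, Fbl, Npm1, Rrp12, Rrs1 and Tbl3) had none in that table.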

Additional observations from a re-analysis of the deposited data

Results flagged for a closer look

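In 26 groups of 5 arrays (the 12 genes described in full and the mean over all 35 genes, in each group), 1 array stood apart by Dixon's test. Chance gives about 1 in 20 groups. Sham 5 read 9.11 for Wdr12, where the other sham arrays lay between 9.48 and 9.61, a gap of 0.738 of the range against a critical value of 0.71.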

How the results depend on the processing

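No gene of the set was called under any of the 23 alternatives, and 15 of 35 kept their sign in each alternative run on them (22 for Rrp12 and Tbl3, which the filter at the 60th percentile removed). Calls among member probe sets were 0 to 2 when single arrays were left out, the 2 without CLP 1. The lowest adjusted p of a gene was 0.128, for Wdr12 without CLP 4. The turns given next are those of the 12 genes described in full, and others of the 35 turned as well. Signs turned for Wdr12 with probe sets averaged (-0.039) and Ddx21 in the high 18S class alone (0.042). They also turned for Polr1a and Nhp2 in the low class alone (0.036 and -0.024). With single arrays left out Nhp2 ran from -0.030 to 0.22, turning without CLP 1 or CLP 2, and Nop58 from -0.34 to 0.064, turning without CLP 5 or sham 2.

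Of all genes, 98 were called in the main analysis, 1 with no filter, 247 with array weights, 355 with the 18S class as a block, 0 in either class alone, and 2 to 248 when 1 array was left out. The replicate block called 119 genes and none of the set; 1 of 5 CLP arrays correlated best with the sham array of its own number, a hint from the data only. Under it Utp23 (adjusted p = 0.0568) and Mxd1 (adjusted p = 0.0509) no longer passed. The SD of the mean over sham arrays, 0.07, was 0.041 with quantile normalization and 0.039 to 0.076 with single arrays left out; these SDs and r between genes were chosen after seeing the data. Genes near the filter, such as Rrp12 and Tbl3, carry less signal over background.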
